A study of Rattus norvegicus with 12 samples.

Results

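Chemokines are small secreted proteins that guide white blood cells into tissue, and 6 of their genes were followed in the rat urethra: the CC chemokines Ccl2, Ccl3 and Ccl5 and the CXC chemokines Cxcl1, Cxcl2 and Cxcl10. They were taken by Ensembl ID as 6 of the 32623 genes in the count table. The IDs are ENSRNOG00000007159 (Ccl2), ENSRNOG00000011205 (Ccl3), ENSRNOG00000010906 (Ccl5), ENSRNOG00000002802 (Cxcl1), ENSRNOG00000002792 (Cxcl2) and ENSRNOG00000022256 (Cxcl10). These pairs of ID and symbol came with the definition of the gene set and could not be checked against the rat gene table at hand, in which 0 of the file's IDs matched. All 6 genes passed the filter on low counts, as did 17521 genes in all.

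Urethral tissue from male rats was sequenced in 4 groups of 3 libraries. The groups were mechanical urethral injury with tetrahedral DNA nanostructure (TDN) treatment, the same injury with rapamycin treatment, the injury with no further treatment named in its label, and sham controls without urethral injury. TDN is a pyramid-shaped particle folded from synthetic DNA strands, and rapamycin is a drug that inhibits the mTOR kinase. The labels name no strain, age, dose, route or harvest time, and do not say which group received the vehicle. Whether each library came from its own animal is not stated, so p-values reflect the spread among libraries, which may be a technical spread.

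Chemokines act through receptors on white blood cells and fall into families named for the spacing of a pair of cysteines near the start of the protein. CC chemokines mainly attract monocytes, macrophages and lymphocytes. CXC chemokines such as Cxcl1 and Cxcl2 attract neutrophils, and Cxcl10 is a well-known interferon-induced attractant of activated T cells. Transcription of many of these genes is switched on by NF-kappa-B after tissue damage or exposure to microbes.

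Total counts ranged from 44765817 to 55928721 per library. Rapamycin replicate 2 stood apart from the rest: it had 17475 detected genes and a TMM scaling factor of 0.660, whereas the remaining 11 libraries had 18659 to 19254 genes and factors of 0.873 to 1.13. Levels below are CPM, read counts scaled to the size of the library and its TMM factor. The labelled tissue and its white blood cell content were not checked against marker genes, since the file's IDs could not be paired with symbols. In bulk tissue, fewer cells of a type and less RNA per cell cannot be told apart.

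**Figure D1:**
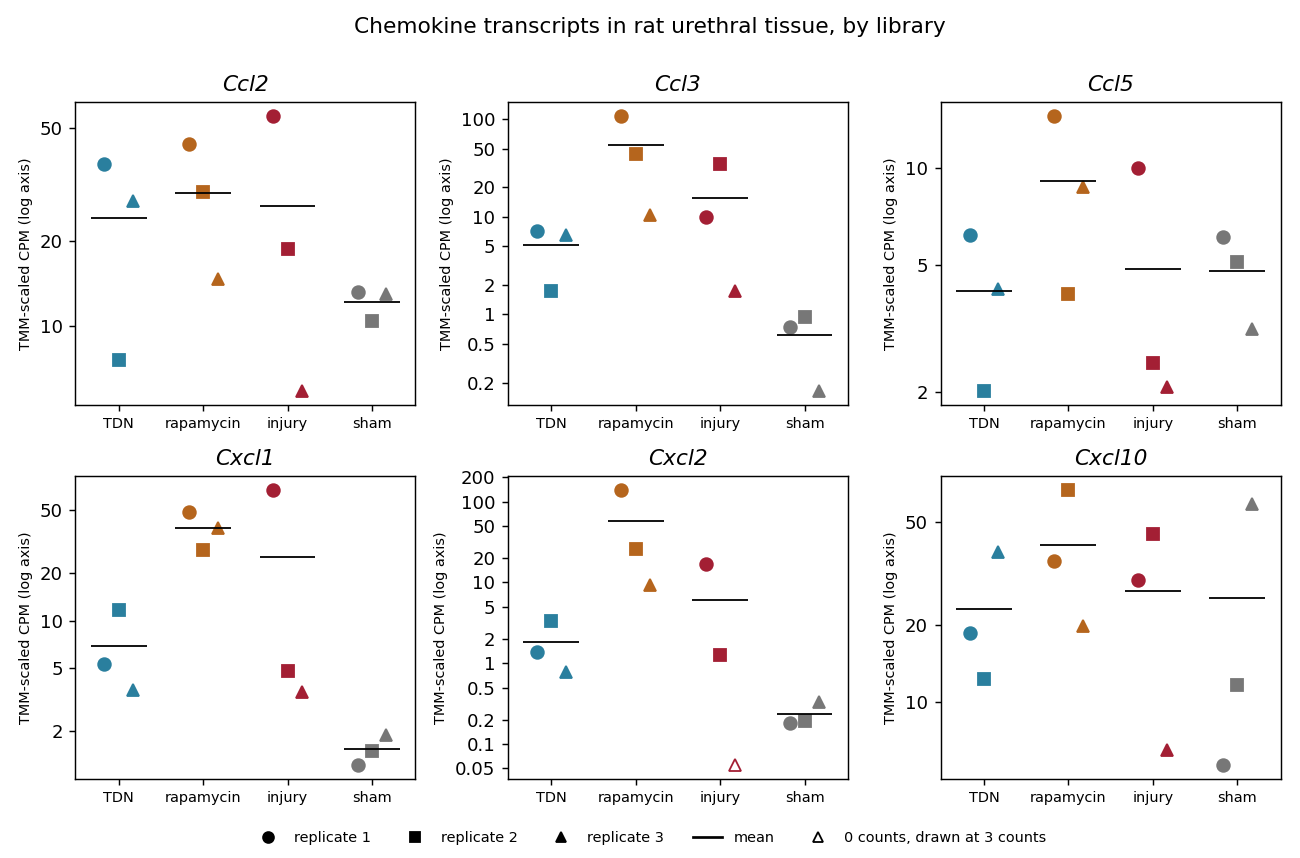
TMM-scaled CPM of each chemokine (log axis) in the 3 libraries of each group, with the group mean as a bar; the open triangle is a library with 0 counts, drawn at 3 counts. Ccl2, Ccl3, Cxcl1 and Cxcl2 lie higher in all rapamycin libraries than in any sham library, as do 23.8% of all tested genes. For Ccl5 and Cxcl10 the groups overlap.

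Cxcl1 and Cxcl2, the neutrophil attractants, and Ccl3, an attractant of monocytes and macrophages, were the chemokines with the widest differences between groups. All 3 were highest on average in rapamycin tissue and lowest in sham. The widest fitted difference of Ccl2 was 2.41-fold, in rapamycin over sham, and Ccl5 and Cxcl10 showed no separation of the injured groups from sham. In all 6 genes the rapamycin group had the highest mean and the highest median of the 4 groups. The share of all genes with this order was not computed.

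Cxcl1 was at 5.30, 11.7 and 3.64 CPM in the TDN libraries and at 48.9, 28.2 and 38.6 CPM in the rapamycin libraries. The injury libraries held 67.3, 4.77 and 3.52 CPM, and the sham libraries 1.23, 1.49 and 1.89 CPM. Every injured library, treated or not, was above every sham library. The share of all genes with this pattern was not computed. In the single comparisons with sham, 15.7 to 23.8% of all genes were higher without overlap. The injury group was split, with replicate 1 the highest library of all 12 and the other 2 injury libraries within the range of TDN or just below it.

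Cxcl2, which acts on the same neutrophil receptor as Cxcl1, was at 1.37, 3.34 and 0.790 CPM in TDN. Rapamycin tissue held 140 CPM in replicate 1, 25.8 CPM in replicate 2 and 9.23 CPM in replicate 3. Injury tissue had 16.7 CPM in replicate 1 and 1.25 CPM in replicate 2, and replicate 3 had 0 counts, which allows a level of up to 0.0555 CPM (a floor of 3 counts). Sham libraries held 0.183, 0.193 and 0.331 CPM, from 10, 11 and 18 counts. Thus TDN and rapamycin were each above sham in all their libraries, while injury ranged from below every sham library to above every TDN library.

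Cxcl1 and Cxcl2 followed each other most closely of the 15 gene pairs. Over the 12 libraries the correlation of their log2 CPM was 0.89 (Pearson) and 0.92 (Spearman), and 0.82 (Pearson) after the group means were subtracted. These values are descriptions over libraries that share group differences and depth. The Pearson values of Cxcl2 include injury replicate 3, where it had 0 counts and a log2 CPM set by the prior count of 2. The genes are paralogs that lie near each other on chromosome 14, and reads common to both may have been split or dropped by the authors' counting, whose rules are not stated. The lowest correlation of the 15 pairs was that of Ccl5 and Cxcl10, at 0.12 (Pearson) and -0.028 (Spearman).

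The start regions of 3 of the 6 genes are shown, those for which the reference at hand held a sequence. Cxcl1 and Cxcl2 were the pair with the highest correlation. Cxcl10 followed them less closely, with a correlation of log2 CPM of 0.39 with Cxcl1 and 0.55 with Cxcl2 (Pearson, 12 libraries; 0.16 and 0.45 after the group means were subtracted). The regions are the 250 bases before the transcription start on the gene's strand, ending at -1. They come from RefSeq on build GRCr8, which is not the build used for counting. Ccl2, Ccl3 and Ccl5 had no such sequence and are named only. Capitals mark matches to the NF-kappa-B consensus on either strand and, in Cxcl10, also the interferon-stimulated response element (ISRE, GAAANNGAAACT), which is its first capital stretch.
Cxcl1, chr14:17479322-17479571, minus strand: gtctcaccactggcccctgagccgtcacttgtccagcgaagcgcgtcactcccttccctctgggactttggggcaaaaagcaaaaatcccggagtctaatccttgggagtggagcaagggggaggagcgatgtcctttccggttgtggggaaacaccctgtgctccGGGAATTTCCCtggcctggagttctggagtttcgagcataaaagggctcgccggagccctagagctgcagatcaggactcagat
Cxcl2, chr14:17467256-17467505, minus strand: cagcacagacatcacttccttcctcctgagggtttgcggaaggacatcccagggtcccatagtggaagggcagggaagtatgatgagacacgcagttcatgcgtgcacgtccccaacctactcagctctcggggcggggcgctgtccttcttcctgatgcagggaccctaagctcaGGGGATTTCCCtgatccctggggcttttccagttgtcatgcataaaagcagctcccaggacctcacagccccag
Cxcl10, chr14:15988816-15989065, plus strand: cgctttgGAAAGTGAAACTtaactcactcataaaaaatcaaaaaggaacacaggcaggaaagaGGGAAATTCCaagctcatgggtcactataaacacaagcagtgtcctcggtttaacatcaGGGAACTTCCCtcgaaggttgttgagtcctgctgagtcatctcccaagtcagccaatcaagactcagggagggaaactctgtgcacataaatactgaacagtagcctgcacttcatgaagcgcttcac
The NF-kappa-B consensus was found in all 3 windows, as a pair of overlapping matches starting at -84 in Cxcl1 and at -74 in Cxcl2. Cxcl10 held 1 match starting at -187 and an overlapping pair starting at -128. Of 33469 windows of the same length, 6.33% held the consensus. The ISRE letters were found only in Cxcl10 of the 3 windows, starting at -243, and in 0.233% of all windows. These matches describe the letters and do not show that a factor binds there.

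Ccl3 was at 7.12, 1.75 and 6.54 CPM in the TDN libraries and at 108, 44.5 and 10.5 CPM in the rapamycin libraries. Injury libraries held 10.1, 35.0 and 1.74 CPM, and sham libraries held 0.750, 0.946 and 0.165 CPM, from 41, 54 and 9 counts. Each injured library was above each sham library, as for Cxcl1, again with no share of all genes computed. Within injury, however, replicate 2 was the highest for Ccl3, whereas replicate 1 was the highest for Cxcl1 and Cxcl2.

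Ccl2, the main attractant of monocytes, was at 37.1, 7.62 and 27.5 CPM in TDN. The rapamycin libraries held 43.9, 29.8 and 14.7 CPM and the injury libraries 55.0, 18.8 and 5.94 CPM. Sham was narrow, at 13.2, 10.4 and 13.0 CPM. Only the rapamycin libraries were all above sham, since TDN replicate 2 and injury replicate 3 lay below the lowest sham library.

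Ccl5, which attracts T cells and monocytes, was at 6.20, 2.02 and 4.19 CPM in TDN. It was at 14.5, 4.06 and 8.71 CPM in rapamycin, at 10.03, 2.46 and 2.07 CPM in injury, and at 6.08, 5.08 and 3.16 CPM in sham. All 3 injured groups overlapped with sham.

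Cxcl10 was at 18.6, 12.3 and 38.4 CPM in TDN. It was at 35.5, 66.9 and 19.8 CPM in rapamycin, at 29.7, 45.1 and 6.53 CPM in injury, and at 5.71, 11.6 and 59.0 CPM in sham. Sham replicate 3 held more Cxcl10 than every library but rapamycin replicate 2, and 10.3 times as much as sham replicate 1. The same sham library had the lowest Ccl3 level of all 12 libraries and was at rank 9 or 10 for the other 4 chemokines.

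**Figure D2:**
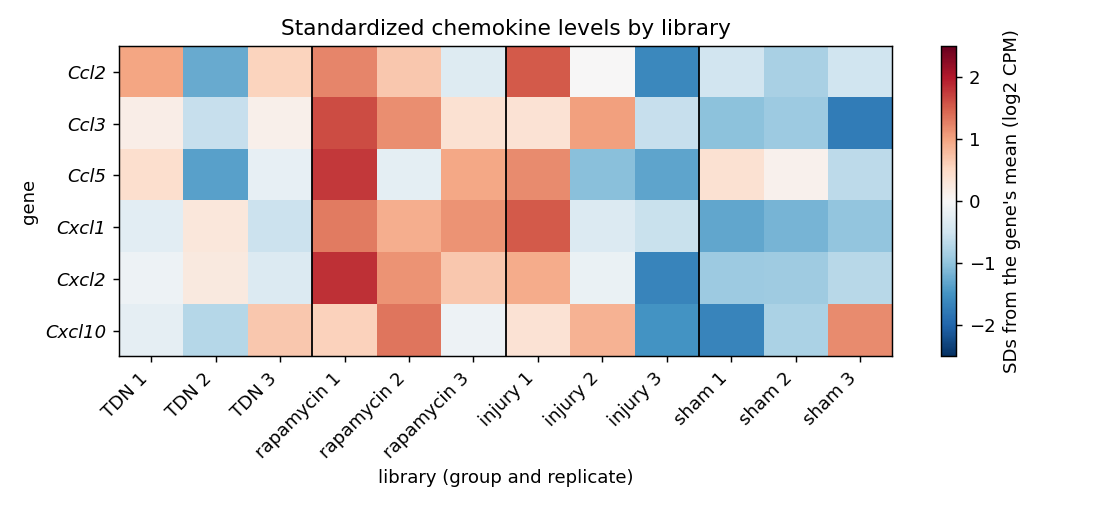
Log2 CPM of each chemokine (rows) in each library (columns), as SDs from that gene's mean over the 12 libraries. Injury replicate 1 and rapamycin replicate 1 are in the upper 6 libraries for all 6 genes, and injury replicate 3 for none.

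Injury against sham asked which chemokines changed in the injured urethra. Cxcl1 averaged 25.2 ± 36.5 CPM in injury and 1.54 ± 0.34 CPM in sham, and Ccl3 averaged 15.6 ± 17.3 CPM in injury and 0.621 ± 0.406 CPM in sham (SD, n = 3 each). Cxcl2 averaged 5.98 ± 9.30 CPM in injury and 0.235 ± 0.083 CPM in sham (SD, n = 3 each). None of the 6 chemokines passed the test (edgeR quasi-likelihood, Benjamini-Hochberg adjusted p under 0.05 over all tested genes), while 0.651% of all tested genes did. At an unadjusted p under 0.05 there were 3 chemokines, all higher, beside 13.9% of all genes higher at that level. DESeq2 called Ccl3, Cxcl1 and Cxcl2 higher, beside 7.49% of all genes it tested. Limma voom called 0 chemokines, and voom with sample quality weights called Ccl3 and Cxcl1 higher, beside 26.6% of all genes.

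The log2 fold change of injury over sham was 4.65 for Ccl3 (SE 1.22, 95% interval 1.95 to 7.34, edgeR adjusted p = 0.0894). For Cxcl1 it was 4.03 (SE 1.04, interval 1.74 to 6.33, edgeR adjusted p = 0.0855), and for Cxcl2 4.65 (SE 1.76, interval 0.78 to 8.53, edgeR adjusted p = 0.175). At most 1.97% of all tested genes had a higher fold change than any of these 3. Ccl2 was at 1.12 (interval -0.52 to 2.77), Ccl5 at 0.025 (interval -1.47 to 1.52) and Cxcl10 at 0.094 (interval -1.86 to 2.05). The median over the 6 was 2.58, beside -0.013 over all tested genes. The libraries of injury and sham did not overlap for 2 of the 6, Ccl3 and Cxcl1, both higher in injury, beside 19.4% of all genes higher without overlap.

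Single libraries moved these values. The log2 fold change of Ccl3 nevertheless stayed between 3.31 and 5.18 when 1 library was left out. Without injury replicate 1 the log2 fold change was 1.43 for Cxcl1, 1.40 for Cxcl2 and 0.020 for Ccl2. Without injury replicate 2 it was 3.31 for Ccl3, and without sham replicate 3 it was 1.65 for Cxcl10. Without injury replicate 3 edgeR called 3 chemokines higher, beside 6.4% of all genes. Without rapamycin replicate 2 edgeR called 2 higher, beside 8.26% of all genes. That library enters this comparison only through the shared estimate of spread, the gene filter and the scaling factors.

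**Figure D3:**
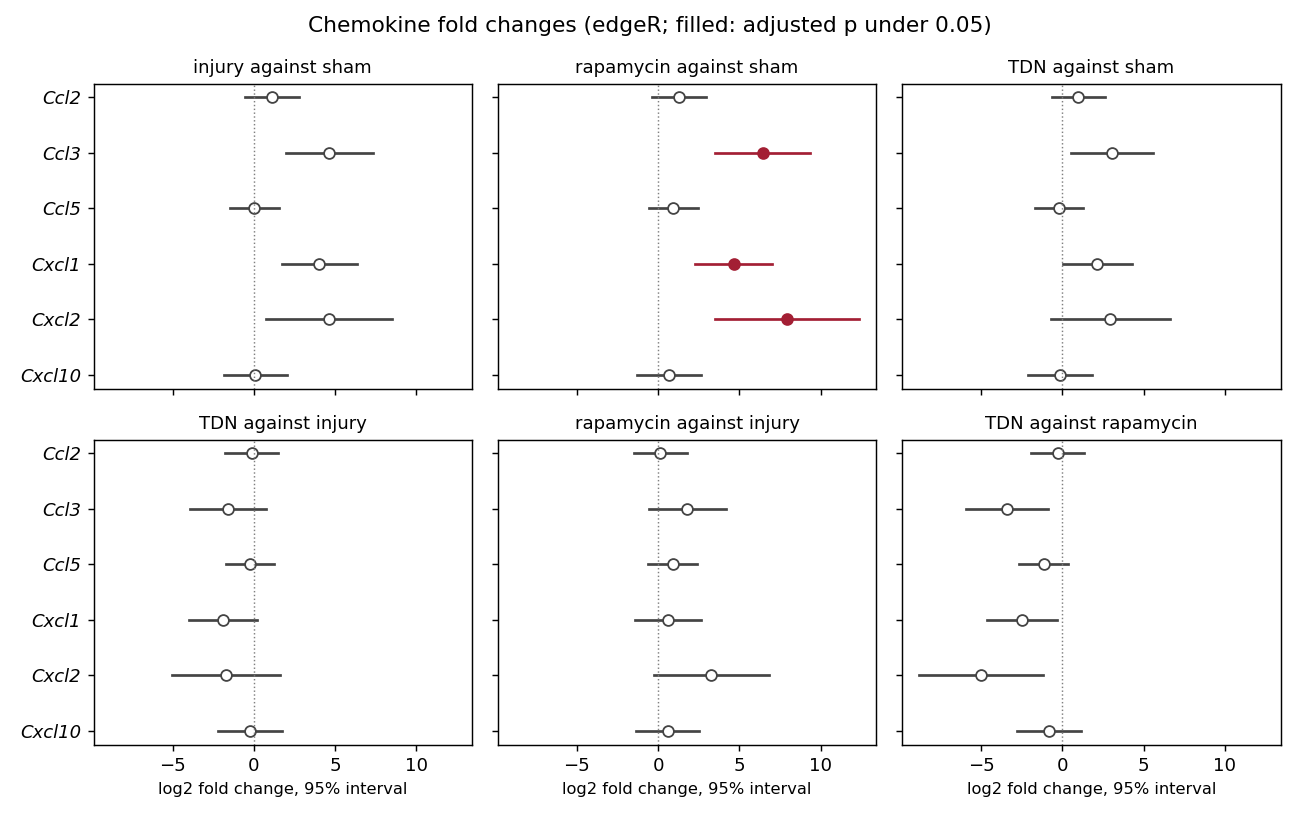
Log2 fold change of each chemokine in each comparison, first-named group over second, with its 95% interval from edgeR; filled red points have an adjusted p under 0.05. Ccl3, Cxcl1 and Cxcl2 in rapamycin against sham, at 6.45, 4.65 and 7.94, are the only filled points.

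Rapamycin-treated injured tissue was next set against sham. Ccl3, Cxcl1 and Cxcl2 rose in rapamycin tissue, and no chemokine fell. Cxcl1 averaged 38.6 ± 10.4 CPM in rapamycin and 1.54 ± 0.34 CPM in sham (SD, n = 3 each; log2 fold change 4.65, SE 1.07, interval 2.29 to 7.01, edgeR adjusted p = 0.0315). Ccl3 averaged 54.4 ± 49.7 CPM in rapamycin and 0.621 ± 0.406 CPM in sham (SD, n = 3 each; log2 fold change 6.45, SE 1.32, interval 3.53 to 9.37, edgeR adjusted p = 0.0256). Cxcl2 averaged 58.3 ± 71.0 CPM in rapamycin and 0.235 ± 0.083 CPM in sham (SD, n = 3 each; log2 fold change 7.94, SE 2.01, interval 3.51 to 12.4, edgeR adjusted p = 0.0399). The 3 called of 6 stand beside 9.54% of all tested genes called higher in this comparison. DESeq2 called the same 3, beside 21.2% of all genes higher, and voom with sample quality weights 4, adding Ccl5, beside 24.1%. Limma voom called only Cxcl1, beside 4.99%, with Ccl3 at an adjusted p of 0.0516 and Cxcl2 at 0.0690 (limma). The fit of the 6 libraries compared also called only Cxcl1, beside 0.196% of all genes, and a test against a minimum log2 fold change of 1 called none of the 6, beside 0.217%.

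The other 3 chemokines did not pass the test. Ccl2 averaged 29.4 ± 14.6 CPM in rapamycin and 12.2 ± 1.5 CPM in sham (SD, n = 3 each; log2 fold change 1.27, interval -0.38 to 2.92, edgeR adjusted p = 0.213). Its rapamycin libraries were all above sham, which makes 4 of 6 chemokines higher without overlap, beside 23.8% of all genes. Ccl5 had a log2 fold change of 0.93 (interval -0.57 to 2.44) and Cxcl10 of 0.68 (interval -1.28 to 2.64). Cxcl10 was at 2.23 without sham replicate 3 and at 0.19 without rapamycin replicate 2. The median over the 6 was 2.96, beside -0.046 over all tested genes.

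The number of calls changed with the libraries in the fit. It was 0 without rapamycin replicate 1, where 0.387% of all genes were called higher, and 0 without any 1 of the sham libraries, where at most 0.106% were. Calls were thus fewer over all genes in these fits. It was 1 (Ccl3) without any 1 of the TDN libraries, beside 2.08 to 2.83% of all genes. The TDN libraries enter only the shared estimate of spread, the gene filter and the scaling factors. Without rapamycin replicate 2, the library that stood apart, Ccl3 and Cxcl1 were called (edgeR adjusted p = 0.0350 and 0.0461) and Cxcl2 was not (edgeR adjusted p = 0.0512), beside 4.45% of all genes called higher. Without injury replicate 2, Cxcl2 was likewise not called (edgeR adjusted p = 0.0522), beside 3.98%. The log2 fold changes themselves stayed between 5.45 and 6.94 for Ccl3, between 4.46 and 4.94 for Cxcl1 and between 6.20 and 8.53 for Cxcl2 over all alternatives.

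TDN against injury asked whether chemokine transcripts differed after treatment of the injured urethra with TDN. None of the 6 passed the test, and none had an unadjusted p under 0.05; edgeR called 0% of all tested genes. DESeq2 and limma voom called 0 chemokines, and voom with sample quality weights called Ccl3 lower, 1 of 6 beside 18.5% of all genes lower. The means were lower in TDN than in injury for all 6 genes, a count not made for all genes. The median log2 fold change was -0.92 over the 6 and -0.0037 over all tested genes. The median CPM was higher in TDN for 4 of the 6 genes, since the injury means rest on 1 or 2 high libraries.

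Cxcl1 averaged 6.88 ± 4.25 CPM in TDN and 25.2 ± 36.5 CPM in injury (SD, n = 3 each), but its medians were 5.30 CPM in TDN and 4.77 CPM in injury. The log2 fold change was -1.87 (SE 0.94, interval -3.96 to 0.21, edgeR adjusted p = 0.649), and 0.73 without injury replicate 1. For Cxcl2 it was -1.71 (interval -5.04 to 1.63, edgeR adjusted p = 0.666), and 1.55 without that library. For Ccl3 it was -1.60 (interval -3.95 to 0.74, edgeR adjusted p = 0.649), and -0.23 without injury replicate 2. Ccl2, Ccl5 and Cxcl10 had log2 fold changes of -0.14, -0.23 and -0.23, with intervals that reached from -2.19 to 1.72 at the widest. The direction of TDN against injury for Ccl2 and Ccl5 also turned without injury replicate 1, to 0.96 and 0.87.

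Rapamycin against injury asked the same of rapamycin. All 6 fold changes were above 0, as were 47.4% of those of all tested genes, and none passed the test, with 0 chemokines at an unadjusted p under 0.05 and 0% of all tested genes called. DESeq2 and both forms of limma voom (plain and with sample quality weights) also called 0 chemokines. Cxcl2 averaged 58.3 ± 71.0 CPM in rapamycin and 5.98 ± 9.30 CPM in injury (SD, n = 3 each; log2 fold change 3.28, SE 1.59, interval -0.23 to 6.80, edgeR adjusted p = 0.902). Ccl3 had a log2 fold change of 1.80 (interval -0.55 to 4.16, edgeR adjusted p = 0.902). The other 4 lay between 0.15 (Ccl2) and 0.91 (Ccl5). Without rapamycin replicate 2 the values were 3.62 for Cxcl2, 1.95 for Ccl3 and 1.24 for Ccl5, while Cxcl10 was at 0.034 against 0.59 with it. Other libraries moved Cxcl2, Ccl3 and Ccl5 more. Without injury replicate 1 the log2 fold change was 6.54 for Cxcl2, 3.22 for Cxcl1 (0.61 with it), 2.01 for Ccl5 and 1.25 for Ccl2. Without injury replicate 2 it was 3.17 for Ccl3 and 1.12 for Cxcl10, and without rapamycin replicate 1 it was 1.47 for Cxcl2 and 0.77 for Ccl3. None of the 6 was called in any of these fits. Groups overlapped for all 6 genes, and the median over the 6 was 0.76, beside -0.031 over all tested genes.

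TDN against rapamycin set the treated groups side by side. Ccl3, Cxcl1 and Cxcl2 were lower in every TDN library than in every rapamycin library, 3 of 6 chemokines beside 17.4% of all genes lower without overlap. Cxcl1 averaged 6.88 ± 4.25 CPM in TDN and 38.6 ± 10.4 CPM in rapamycin (SD, n = 3 each; log2 fold change -2.49, SE 0.97, interval -4.62 to -0.36, edgeR adjusted p = 0.173). Cxcl2 averaged 1.83 ± 1.34 CPM in TDN and 58.3 ± 71.0 CPM in rapamycin (SD, n = 3 each; log2 fold change -4.99, SE 1.73, interval -8.80 to -1.17, edgeR adjusted p = 0.161). Ccl3 averaged 5.14 ± 2.95 CPM in TDN and 54.4 ± 49.7 CPM in rapamycin (SD, n = 3 each; log2 fold change -3.41, SE 1.14, interval -5.92 to -0.90, edgeR adjusted p = 0.161).

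With edgeR, 0 chemokines passed in TDN against rapamycin, as did 0% of all tested genes. At an unadjusted p under 0.05 there were 3, all lower, beside 18% of all genes. DESeq2 called the same 3 lower, beside 10.1% of all genes it tested, and limma voom called 0. Sample quality weights in voom gave 4 lower, adding Ccl5, beside 17.4% of all genes. Without rapamycin replicate 3 edgeR called Ccl3 and Cxcl2 lower, 2 of 6 beside 16.2% of all genes. Without rapamycin replicate 2, none was called, and the log2 fold changes were -3.56 for Ccl3, -2.69 for Cxcl1 and -5.37 for Cxcl2. They were -2.38 for Ccl3, -2.27 for Cxcl1 and -3.22 for Cxcl2 without rapamycin replicate 1. Ccl2, Ccl5 and Cxcl10 overlapped between the groups, with log2 fold changes of -0.29, -1.14 and -0.82.

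TDN-treated injured tissue was likewise set against sham. Ccl3, Cxcl1 and Cxcl2 were higher in all TDN libraries than in all sham libraries, 3 of 6 chemokines beside 15.7% of all genes. Ccl3 averaged 5.14 ± 2.95 CPM in TDN and 0.621 ± 0.406 CPM in sham (SD, n = 3 each; log2 fold change 3.04, SE 1.14, interval 0.52 to 5.57, edgeR adjusted p = 0.719). The log2 fold change of Cxcl1 was 2.16 (SE 0.96, interval 0.035 to 4.29, edgeR adjusted p = 0.919) and that of Cxcl2 2.95 (SE 1.66, interval -0.72 to 6.61, edgeR adjusted p = 1).

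None of the 6 passed the edgeR test in TDN against sham, where 0% of all tested genes did. Ccl3 and Cxcl1 had an unadjusted p under 0.05 and were higher, beside 3.93% of all genes. DESeq2 and limma voom called 0 chemokines, and voom with sample quality weights called Cxcl1 higher, 1 of 6 beside 6.03% of all genes. A fit of the 6 TDN and sham libraries alone called Cxcl1 and Cxcl2 (edgeR adjusted p = 0.0436 and 0.0434), 2 of 6 beside 3.65% of all genes called higher in that fit. Ccl2 was at 0.98 (interval -0.66 to 2.62), Ccl5 at -0.21 (interval -1.70 to 1.29) and Cxcl10 at -0.14 (interval -2.09 to 1.82). The comparisons with sham share the same 3 sham libraries, and those with injury the same 3 injury libraries, so their values are not independent of each other.

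**Figure D4:**
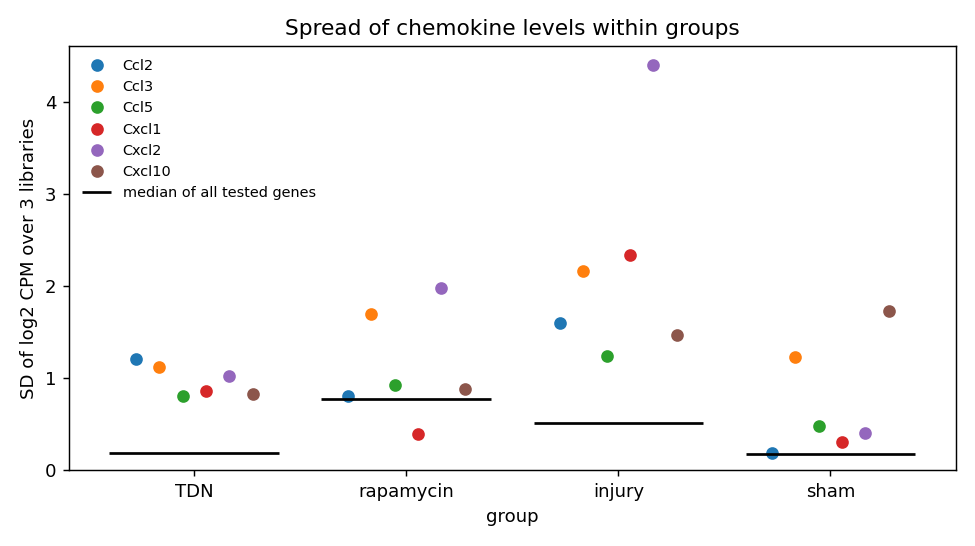
SD of log2 CPM over the 3 libraries of each group for each chemokine (points), with the median SD of all tested genes as a bar. The SDs in TDN lie between 0.81 and 1.21, above a median of 0.185 over all genes, and Cxcl1 in rapamycin is the only point below its group's bar.

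The chemokines varied more between libraries of a group than most genes, though less clearly in rapamycin. Their SD of log2 CPM was above the median of all tested genes in 23 of 24 combinations of gene and group. Some of these were near the median. Ccl2 in sham was above 53.8% of genes, and in rapamycin Ccl2 was above 51.6%, Cxcl10 above 56.1% and Ccl5 above 58.7%. In TDN, whose libraries otherwise resembled each other, the 6 SDs lay between 0.81 and 1.21 beside a median of 0.185, and each was above those of at least 92.8% of genes. In injury they ran from 1.24 for Ccl5 to 4.39 for Cxcl2, beside a median of 0.514. The Cxcl2 value there includes the library with 0 counts and so depends on the prior count of 2 used for the log scale. The combination below the median was Cxcl1 in rapamycin, with an SD of 0.40 beside a median of 0.773. The biological coefficient of variation fitted by edgeR ranged from 0.591 for Ccl5 to 1.21 for Cxcl2, beside 0.504 in common over all genes.

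The same few libraries were high for most chemokines. Rapamycin replicate 1 was the highest of the 12 libraries for Ccl3, Ccl5 and Cxcl2, and injury replicate 1 for Ccl2 and Cxcl1. Injury replicate 3 was the lowest for Ccl2 and Cxcl2 and was at rank 9 or below for every member. Among 11866 other genes with a mean of at least 5 CPM, ENSRNOG00000009331 was most like the mean of the 6 standardized chemokines (Pearson r = 0.97 over the 12 libraries). It averaged 19.0 ± 5.0 CPM in TDN, 81.2 ± 44.9 CPM in rapamycin, 33.7 ± 24.4 CPM in injury and 11.9 ± 0.9 CPM in sham (SD, n = 3 each). ENSRNOG00000048053 was the next (r = 0.97), at 3.63 ± 1.13 CPM in TDN, 29.2 ± 20.0 CPM in rapamycin, 13.1 ± 14.4 CPM in injury and 0.949 ± 0.236 CPM in sham (SD, n = 3 each).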

How the data were processed

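Poly(A)-enriched RNA from rat urethral tissue was sequenced from both fragment ends, per the labels' protocols and series text. The authors deposited whole-number counts per Ensembl gene ID without normalization. Per the submitters' processing notes the genome build was Rnor 6.0. Aligner, counter, annotation and the use of strand were not given in the sources used here, and overlapping or antisense genes could not be told apart. Of 15 library columns 12 matched labelled samples and 3 were not used.

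Genes were tested with edgeR 4.0.16 in R 4.3.3 (quasi-likelihood test, TMM scaling, default expression filter, 1 coefficient per group over all 12 libraries, 8 residual degrees of freedom). P-values were Benjamini-Hochberg adjusted over 17521 genes within a comparison and called under 0.05. Standard errors are the absolute log2 fold change over the square root of F. Log2 CPM used a prior count of 2. Floors of 3 counts and binomial intervals cover counting error only. The script was tested on simulated data with less spread between libraries than these data have. That test does not show how many changes are found or falsely called at the real spread. Alternatives were DESeq2 1.42.0, limma 3.58.1 voom, other scalings, filters and sets of libraries.

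The named genes were the 6 members and the 2 IDs most like their mean. Lists of other chemokines, receptors, inducing cytokines and cell type markers, written by symbol, were not evaluated because the IDs could not be paired with symbols. Members and lists were chosen with earlier results of these data known. The deviations of same-numbered libraries of injury and sham had correlations of 0.107, 0.138 and 0.261, which come from the data and not the labels. Libraries with different numbers were not compared, so these values have no baseline. The correlations of rapamycin and injury were also all above 0 (0.0921, 0.156 and 0.550). Every other comparison held a pair below 0.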

Additional observations from a re-analysis of the deposited data

How the results depend on the processing

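Over 810 values of single chemokines under alternatives, 720 kept their direction and side of the threshold, 27 lost a call, 26 gained one and 37 reversed. Most of the 810 belong to values that were not called. All 27 lost calls fell on the 3 called values, those of rapamycin against sham with 22 alternatives each. The call was lost in 7 of the 22 for Ccl3, 8 for Cxcl1 and 12 for Cxcl2. No value that was called reversed. The shares of all genes that follow count both directions. In injury against sham, where 0 chemokines were called, DESeq2 called 3 (1924 or 11.1% of all genes). The fit without the rapamycin group called 2 (2616 or 15.1%) and voom with sample quality weights 2 (9322 or 53.2%). Leaving out a library gave 0 to 3 (2117 or 11.9% where it was 3). In rapamycin against sham, where 3 were called, the fit of the 6 libraries compared called 1 (34 or 0.202% of all genes). Limma voom called 1 (1783 or 10.2%), and a minimum log2 fold change of 1 called 0 (40 or 0.228%). Leaving out a library gave 0 to 3, with 14.8 to 40.6% of all genes called where it was 3. Where it was 0, at most 0.443% were called. In TDN against injury, voom with sample quality weights called 1 (6581 or 37.6% of all genes). In TDN against rapamycin, DESeq2 called 3 (1738 or 11.2% of all genes) and voom with sample quality weights 4 (5993 or 34.2%). Leaving out a library gave 0 to 2 (4788 or 26.8% where it was 2). In TDN against sham, the fit of the 6 libraries compared called 2 (993 or 5.88% of all genes). Voom with sample quality weights called 1 (1959 or 11.2%). With the replicate number as a block, 3 chemokines were called in rapamycin against sham (2586 or 14.8% of all genes). In the other comparisons 0 were called, as without the block. Over all alternatives the genes called among all tested ranged from 0 to 9322 in injury against sham (114 as reported), 1 to 8440 in rapamycin against sham (2162), 0 to 6581 in TDN against injury, 0 to 30 in rapamycin against injury, 0 to 5993 in TDN against rapamycin and 0 to 1959 in TDN against sham (0 as reported in each of these 4).

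The reversed values were log2 fold changes of uncalled genes, and the cause was not tested. In TDN against injury, limma voom gave 0.12 for Ccl2, 0.015 for Ccl5, 0.011 for Cxcl10 and 1.48 for Cxcl2, voom with sample quality weights 0.12 for Ccl5 and 0.41 for Cxcl2, and the replicate block 0.075 for Ccl2. In injury against sham, Ccl5 was at -0.32 in limma voom, -0.66 with sample quality weights, -0.32 with the replicate block and -0.040 with upper quartile factors. In TDN against sham, Cxcl10 was at 0.39 in limma voom, 0.51 with sample quality weights and 0.046 with the replicate block, and in rapamycin against injury it was at -0.16 with sample quality weights. Leaving out a library gave ranges, in TDN against injury, of -0.62 to 0.96 for Ccl2, -0.64 to 0.87 for Ccl5, -2.49 to 0.73 for Cxcl1, -2.47 to 1.55 for Cxcl2 and -0.81 to 0.32 for Cxcl10. The ranges were -0.33 to 1.25 for Ccl2 in rapamycin against injury, -0.74 to 0.14 for Ccl2 in TDN against rapamycin, -1.07 to 0.41 for Ccl5 and -0.41 to 1.65 for Cxcl10 in injury against sham, and -0.62 to 0.12 for Ccl5 and -0.72 to 1.41 for Cxcl10 in TDN against sham. With 1 library left out, the group of 2 is assumed to vary like the others. Depth limits Cxcl2 in sham and in injury replicate 3, where it rests on 0 to 18 counts. Ccl3 in sham is limited likewise, at 41, 54 and 9 counts in replicates 1 to 3.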

Other observations

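The share of Cxcl2 in the counts of Cxcl1 and Cxcl2 together is given for each library. The intervals cover counting error only and not the spread between tissue samples. This measure was chosen after the values were seen, does not depend on library scaling and is a share of counts, not of molecules. Of the counts of both genes, Cxcl2 made up 20.5% (95% Wilson interval 16.6 to 25.0%), 22.2% (19.5 to 25.2%) and 17.8% (13.5 to 23.2%) in the TDN libraries. In rapamycin the shares were 74.1% (73.1 to 75.0%), 47.8% (45.4 to 50.3%) and 19.3% (17.8 to 20.9%). In injury they were 19.9% (18.7 to 21.1%), 20.8% (16.6 to 25.6%) and 0% (0 to 1.98%), and in sham 13.0% (7.21 to 22.3%), 11.5% (6.52 to 19.4%) and 14.9% (9.62 to 22.3%).

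Rapamycin replicates 1 and 2 thus stood above the other libraries, and injury replicate 3 below them. The mean share was 20.2 ± 2.2% in TDN and 13.1 ± 1.7% in sham (SD, n = 3 each; exact two-sided permutation p = 0.1, or 0.3 after adjustment over 6 comparisons). With 3 libraries in each group no exact p can fall below 0.1. It was 47.1 ± 27.4% in rapamycin and 13.1 ± 1.7% in sham (SD, n = 3 each; exact two-sided permutation p = 0.1, adjusted p = 0.3). The other 4 comparisons gave an exact permutation p of 0.3 or more.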
